A study of Homo sapiens with 8 samples.

Results

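The sugar-sensing genes described here are the transcription factors MLXIP (MondoA) and MLXIPL (ChREBP), their shared partner MLX, the arrestin-like genes TXNIP, ARRDC2, ARRDC3 and ARRDC4, and the zinc finger factor KLF10. Members were all probe sets that the platform annotation ties to 1 of these 8 genes alone, which gave 18 of the 41091 probe sets with a single gene. MLX had 6 of them, MLXIP 4, TXNIP 3, and the other genes 1 each. The cells were A549, an established human lung adenocarcinoma line, and RNA was read on 8 Affymetrix 3' expression arrays. Cells received small interfering RNA (siRNA), either a control or one directed at the coactivator SRC-1, whose gene is NCOA1. They spent 36 h in medium with 10% dialyzed serum, and then went into medium that contained glucose or lacked it, again with dialyzed serum. The 2 siRNAs and 2 media made 4 groups of 2 arrays, labelled as biological replicates. All groups had thus been transfected and ended in dialyzed serum. For how long the last medium was applied, and whether replicates were separate cultures, the sources used here do not say.

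MondoA and ChREBP are basic helix-loop-helix leucine zipper proteins that sense hexose phosphates made from imported sugar. Each pairs with MLX, and the dimers bind carbohydrate response elements, in which E-box-like motifs are set a fixed distance apart. TXNIP and ARRDC4 are the best known targets of MondoA. Both encode alpha-arrestins, adaptor proteins that curb glucose uptake, and TXNIP also binds thioredoxin. KLF10, first known as a gene induced by TGF-beta, has been described as a ChREBP target in liver.

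The promoter windows of 3 arrestin genes are shown because these genes are the members best known as targets or with the largest glucose difference below, and because they differ in the motifs they hold. The 250 bases before the RefSeq start site (GRCh38.p14, 5′ to 3′ along the gene, the most upstream start of each gene) are given in lower case. Capitals mark every match, on either strand, to the E-box CACGTG, to a paired E-box-like motif spelled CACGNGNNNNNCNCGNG, or to the CCAAT box (ATTGG when read on the other strand). The spelling of the paired motif was written with the published TXNIP element known, so that its match in TXNIP is no finding.
TXNIP, chr1:145996580-145996829 (minus strand): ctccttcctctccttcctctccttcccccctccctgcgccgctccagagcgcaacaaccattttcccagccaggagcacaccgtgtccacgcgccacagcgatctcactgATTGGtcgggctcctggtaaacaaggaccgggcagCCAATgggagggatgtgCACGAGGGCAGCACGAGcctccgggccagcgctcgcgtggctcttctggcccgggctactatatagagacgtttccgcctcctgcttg
ARRDC4, chr15:97960453-97960702 (plus strand): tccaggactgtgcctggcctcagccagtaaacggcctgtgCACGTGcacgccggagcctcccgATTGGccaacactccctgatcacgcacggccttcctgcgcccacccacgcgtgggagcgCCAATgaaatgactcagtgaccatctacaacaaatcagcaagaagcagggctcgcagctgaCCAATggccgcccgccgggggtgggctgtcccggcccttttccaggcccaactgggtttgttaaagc
ARRDC3, chr5:91383318-91383567 (minus strand): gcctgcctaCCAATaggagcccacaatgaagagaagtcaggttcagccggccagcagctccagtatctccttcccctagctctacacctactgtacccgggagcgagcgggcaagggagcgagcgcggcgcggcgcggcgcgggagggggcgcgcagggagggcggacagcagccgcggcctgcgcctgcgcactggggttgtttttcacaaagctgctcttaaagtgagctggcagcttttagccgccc
TXNIP held the paired motif as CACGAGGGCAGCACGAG, from base -88 to base -72 relative to its start, with a CCAAT box before it at -105 to -101 and another at -140 to -136. ARRDC4 held an E-box at -210 to -205 and 3 CCAAT boxes, and no match to the paired motif in this window. ARRDC3 held a CCAAT box at -241 to -237 and neither of the other motifs. Of 35116 RefSeq promoter windows of 300 bases, 0.501% held the paired motif, 7.26% the E-box and 34.6% a CCAAT box. Windows were found for 7 of the 8 genes, in 10 windows, since TXNIP, ARRDC2 and ARRDC3 have a second start. The paired motif was present in 1 of the 10 windows, the E-box in 2 (ARRDC4 and, at -50 to -45, MLX) and the CCAAT box in 6. A match is a description of the letters only. No factor binding was measured here.

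The correlation of log2 signals between replicates lay between 0.997 and 0.998. Array medians lay between 4.97 and 5.01, which cannot show array quality, since the normalization of the deposited values was not stated. All 4 NCOA1 probe sets were lower on all 4 knockdown arrays than on all 4 control arrays, between 4.02-fold and 9.10-fold. All 6 epithelial markers examined (KRT7, KRT8, KRT18, KRT19, EPCAM and CDH1) stood at or above the 82.0th percentile of probe sets, from EPCAM up to KRT18 at the 99.9th. Of the leukocyte markers PTPRC stood at the 13.6th, CD14 at the 50.2nd and CD3E at the 57.3rd percentile. Of the endothelial markers CDH5 stood at the 24.0th, VWF at the 57.0th and PECAM1 at the 61.3rd. The 4 fibroblast markers stood between the 35.5th (COL1A2) and the 80.3rd (COL1A1). Of these 10 markers of other cell types 6 thus passed the filter on dim signals that the members had to pass. With glucose KRT19 was 1.43-fold and KRT8 1.21-fold higher and KRT7 1.28-fold lower, and none of the 6 tested markers of other cell types was called. The 3'-to-5' difference of the GAPDH control averaged 0.157 with glucose and 0.130 without on the log2 scale (exact permutation test of 4 against 4 arrays, two-sided p = 0.0571), and that of beta-actin 0.573 and 0.480 (p = 0.143). The part of this difference in the glucose results was not tested.

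Of the 18 probe sets, 15 passed a filter on dim signals, and all 8 genes kept at least 1. The filter asked for a mean of at least 4.80 on the log2 scale, the 40th percentile of probe sets with a single gene. Percentiles of single signals in the text rank among all probe sets on the array, so they are not on the scale of this cut. Averaged over both siRNAs, glucose raised 5 of these 15 probe sets and lowered 5 at an adjusted p below 0.05 (limma), beside 54.2% of all 24655 probe sets tested (28.1% higher and 26.1% lower). By the brightest probe set of each gene, ARRDC3, ARRDC4 and MLXIP were higher with glucose, MLX and KLF10 were lower, and TXNIP, ARRDC2 and MLXIPL were not called. Of all 13584 genes tested in this way 54.5% were called, 29.0% higher and 25.6% lower. The median difference of the 8 genes was 0.10, against -0.00035 over all genes.

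With control siRNA alone, 4 of the 15 probe sets were called higher and 4 lower, beside 42.8% of all probe sets (21.9% higher and 20.9% lower). By gene the counts were 3 and 2 of 8, beside 43.5% of all genes (22.8% and 20.7%). Under SRC-1 siRNA, again 4 probe sets were higher and 4 lower, beside 42.1% (22.7% and 19.4%), and again 3 and 2 of the 8 genes, beside 43.0% (23.7% and 19.3%). Since about as large a part of all probe sets was called, these counts are no result about the 8 genes as a group, and the single genes are described instead.

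**Figure D1:**
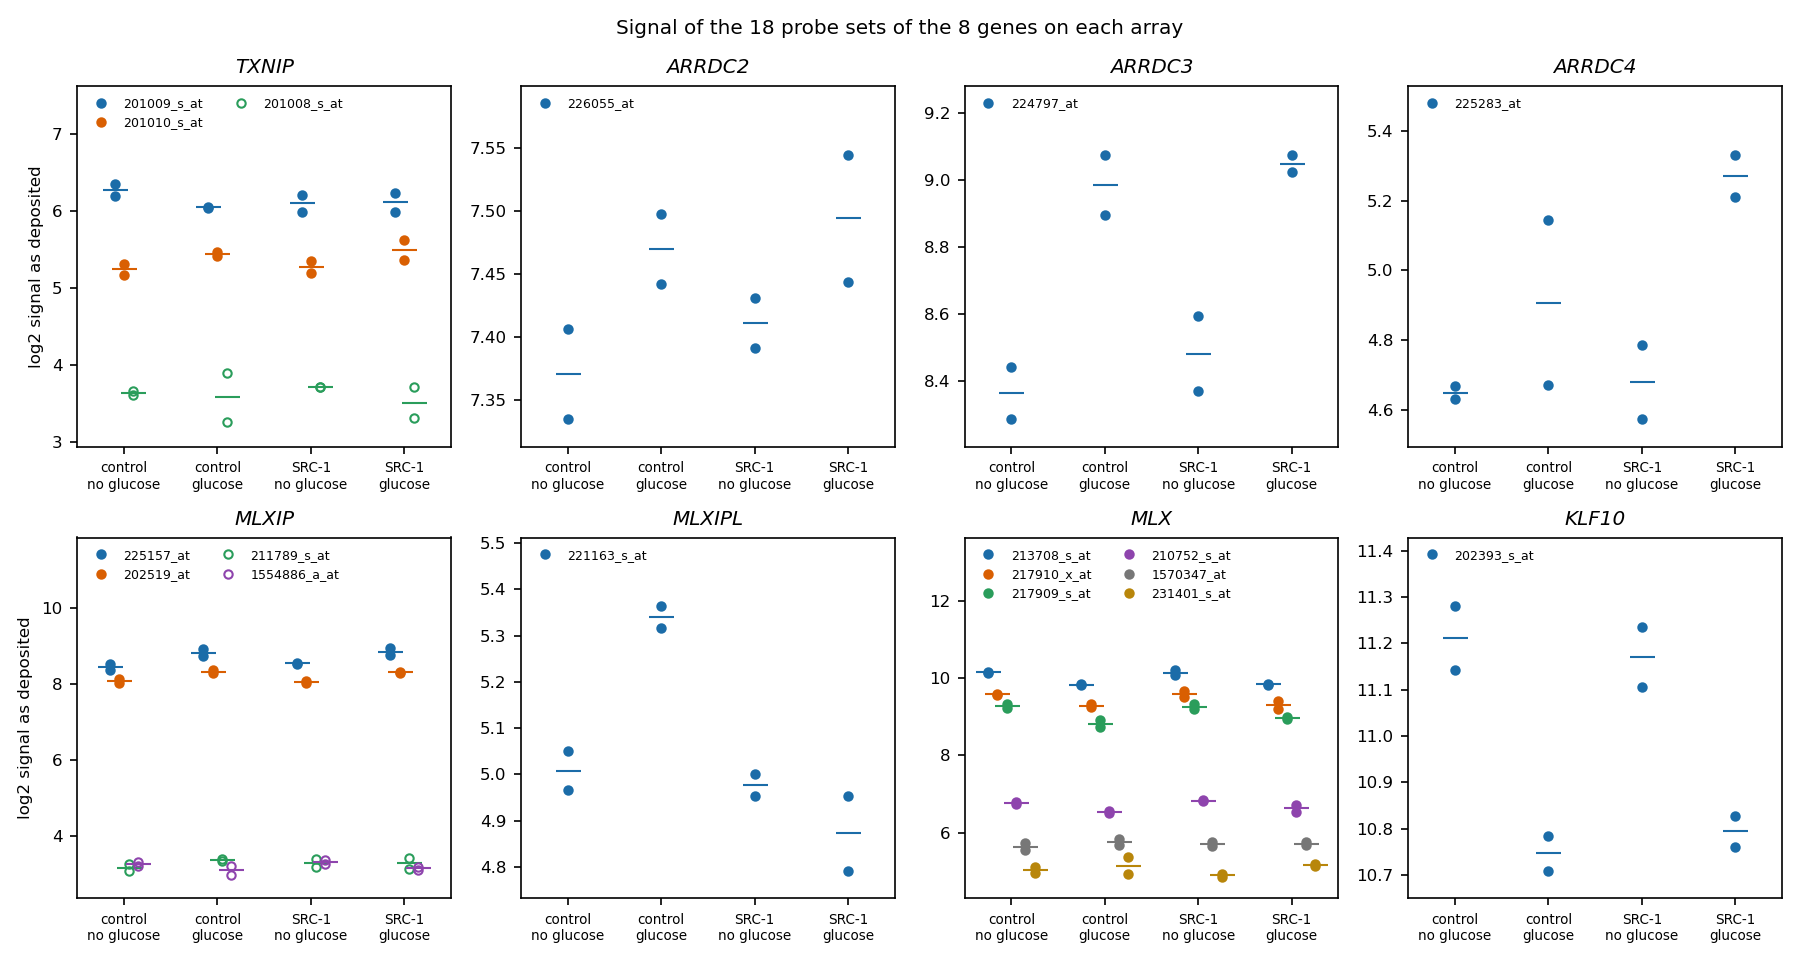
Deposited log2 signal (vertical axis, a separate range in each panel) of every probe set of the 8 genes on each array, by group (horizontal axis). Points are arrays, short lines are group means of 2 arrays, colours are probe sets, and open points are the 3 dim probe sets left out of the tests. ARRDC3 and KLF10 separate the arrays with glucose from those without, in opposite directions, and the brightest TXNIP probe set stays between 5.99 and 6.35.

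Among the sensors, MLXIP, which encodes MondoA, had a brightest probe set (225157_at) at 8.53 and 8.37 with control siRNA without glucose and at 8.74 and 8.91 with glucose. Under SRC-1 siRNA the values were 8.52 and 8.56 without glucose and 8.94 and 8.76 with it. All 4 arrays with glucose lay above all 4 without. The averaged difference was 0.34 ± 0.069 (log2, SE), or 1.27-fold (adjusted p = 0.00273). The second probe set that passed the filter, 202519_at, gave 0.25 ± 0.054 (adjusted p = 0.00394), again with no overlap between the media. In single arms both MLXIP probe sets were called higher, by 0.38 ± 0.097 and 0.25 ± 0.077 with control siRNA and by 0.31 ± 0.097 and 0.25 ± 0.077 with SRC-1 siRNA. The averaged calls held when any 1 array was left out, and the single-arm calls did not hold throughout. That of 225157_at with control siRNA was lost without replicate 2 of either medium (adjusted p = 0.0927 and 0.0835), and with SRC-1 siRNA its adjusted p rose to at most 0.184 when 1 of the arrays was left out. The calls of 202519_at were lost without replicate 2 of either control medium (0.164 and 0.132) and without any 1 of the 4 arrays under SRC-1 siRNA (0.0671 to 0.130). Without the filter on dim signals, 225157_at was no longer called under SRC-1 siRNA (0.0654), nor 202519_at in either arm (0.0666 and 0.0656). The remaining MLXIP probe sets, 211789_s_at and 1554886_a_at, were dim (18.5th and 16.9th percentile) and were not called in a fit without the filter (adjusted p = 0.451 and 0.0915).

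MLX, the partner that both sensors need to bind DNA, went the other way. Its brightest probe set (213708_s_at) read 10.15 and 10.16 with control siRNA without glucose and 9.85 and 9.82 with glucose. The arrays under SRC-1 siRNA read 10.20 and 10.09 without glucose and 9.86 and 9.82 with it. The media did not overlap, and the averaged difference was -0.31 ± 0.050, a 1.24-fold fall (adjusted p = 8.12e-04). The next 3 MLX probe sets in brightness fell as well, by 0.38 for 217909_s_at, 0.29 for 217910_x_at and 0.21 for 210752_s_at. Within single arms 213708_s_at, 217910_x_at and 217909_s_at were called lower and 210752_s_at was not. Under SRC-1 siRNA the call of 213708_s_at was lost without replicate 1 of the arrays without glucose (-0.25, adjusted p = 0.0662). That of 217910_x_at with control siRNA was lost without any 1 of its 4 arrays (0.0588 to 0.128). Under SRC-1 siRNA its call was lost without replicate 1 of either medium (0.186 and 0.196), and that of 217909_s_at without 1 of 3 arrays in turn (0.0618 to 0.155). Without the filter, 217910_x_at was called in neither arm (0.0628 and 0.0677), and 217909_s_at not under SRC-1 siRNA (0.0581). The 2 weakest MLX probe sets, 1570347_at (0.070 ± 0.064) and 231401_s_at (0.20 ± 0.093), had averaged differences above 0 and were not called in the averaged comparison or in either arm. The latter varied with the arrays used. Without replicate 2 of control siRNA with glucose it was called higher in the average (0.31, adjusted p = 0.00497) and in both arms (0.0310 with control and 0.0287 with SRC-1 siRNA). Without replicate 1 of that group its difference with control siRNA was -0.099, and it was called under SRC-1 siRNA (0.0287), as it was in a fit of that arm alone (0.0308). The MLX probe sets that fell all carry an _s_at or _x_at suffix, and 1570347_at is the only one of the 6 without it. Which of the 6 probe sets reads MLX best was not tested. On their brightest probe sets, MLXIP and MLX thus moved in opposite directions with glucose.

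MLXIPL, which encodes ChREBP, has a single probe set (221163_s_at) near the middle of all signals, at the 50.8th percentile. Markers of other cell types such as CD14 (50.2nd), VWF (57.0th) and CD3E (57.3rd) stood at a like level. Others, such as PTPRC (13.6th) and CDH5 (24.0th), stood lower. Whether the MLXIPL signal lies above background was not tested. It read 4.97 and 5.05 with control siRNA without glucose and 5.36 and 5.32 with glucose. Under SRC-1 siRNA it read 4.9539 and 4.99995 without glucose and 4.79 and 4.9526 with it, so the media nearly touched. The highest of the 4 group means was that of control siRNA with glucose (5.34 ± 0.034, SD, n = 2). The other 3 means lay between 4.87 and 5.01. Glucose raised MLXIPL with control siRNA by 0.33 ± 0.080, or 1.26-fold (adjusted p = 0.00976), and without replicate 1 of the control arrays without glucose the difference was 0.29 (adjusted p = 0.0666). With SRC-1 siRNA the difference was -0.10 ± 0.080 (adjusted p = 0.337). The difference between the arms was -0.44 ± 0.11 (unadjusted p = 0.00433) and did not pass over all probe sets (adjusted p = 0.999).

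Among the arrestins, ARRDC3, an adaptor for the turnover of membrane receptors, had the largest glucose difference of the 8 genes with control siRNA and in the average. Under SRC-1 siRNA that of ARRDC4 was as large (0.59 against 0.57). The ARRDC3 probe set (224797_at) read 8.29 and 8.44 with control siRNA without glucose and 8.90 and 9.08 with glucose. In the SRC-1 siRNA arm it read 8.37 and 8.59 without glucose and 9.07 and 9.02 with it. All arrays with glucose lay above all arrays without. The difference was 0.62 ± 0.10 with control siRNA (1.54-fold, adjusted p = 0.00146) and 0.57 ± 0.10 with SRC-1 siRNA (1.48-fold, adjusted p = 0.00245). The averaged effect was 1.51-fold (95% interval 1.35 to 1.69, adjusted p = 1.53e-04). Over the 8 arrays the genes with the pattern most like that of ARRDC3 were DCTN5 (Pearson r = 0.995), HFE (0.995) and CD46 (0.993), as a description of arrays that share the contrast of media.

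ARRDC4, the arrestin closest to TXNIP in its known sugar response, was weak on the arrays (225283_at, 48.1th percentile). Its mean over the 8 arrays (4.88) passed the filter at 4.80 only through the arrays with glucose. The group means without glucose (4.65 with control and 4.68 with SRC-1 siRNA) lay below that cut. Those with glucose (4.91 and 5.27) lay above it. The calls given below were kept in the fit without the filter. It read 4.63 and 4.67 with control siRNA without glucose and 5.14 and 4.67 with glucose. In the SRC-1 siRNA arm it read 4.79 and 4.57 without glucose and 5.21 and 5.33 with it. The lower control array with glucose lay at the level of the arrays without, so the media overlapped. The averaged difference was 0.42 ± 0.10, or 1.34-fold (95% interval 1.14 to 1.58, adjusted p = 0.00722). It was 0.26 ± 0.15 with control siRNA (adjusted p = 0.191) and 0.59 ± 0.15 with SRC-1 siRNA (adjusted p = 0.0108), and the difference between the arms was not called (0.33 ± 0.21, adjusted p = 0.999). Without the lower control array with glucose, replicate 2, ARRDC4 was called with control siRNA too (0.49, adjusted p = 0.0125), and without replicate 1 the difference was 0.021. The call with SRC-1 siRNA was lost without replicate 2 of either medium (adjusted p = 0.0732 without the glucose-free array and 0.0593 without the glucose array). OGDH (r = 0.980), ZNF136 (0.970) and FBXO46 (0.969) had the patterns most like it over the 8 arrays.

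ARRDC2, a less studied arrestin, stood at 7.33 and 7.41 with control siRNA without glucose and at 7.50 and 7.44 with glucose (226055_at). With SRC-1 siRNA it stood at 7.43 and 7.39 without glucose and at 7.44 and 7.54 with it. All arrays with glucose lay above those without, by small steps, and the averaged difference of 0.092 ± 0.052 was not called (adjusted p = 0.169). Its 95% interval reached from 0.982-fold to 1.16-fold.

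For TXNIP, the classical target, the brightest probe set was not called and the next was called weakly. The brightest probe set (201009_s_at, 65.1th percentile) read 6.20 and 6.35 with control siRNA without glucose and 6.06 and 6.05 with glucose. Under SRC-1 siRNA it read 5.99 and 6.22 without glucose and 6.23 and 6.00 with it. The averaged difference was -0.10 ± 0.077 (adjusted p = 0.287), with a 95% interval from 0.823-fold to 1.051-fold. It ranged from -0.16 to -0.046 when 1 array was left out, each end reached without 1 of the SRC-1 siRNA arrays with glucose, and the mean of the gene's probe sets gave 0.055 (adjusted p = 0.394). The second probe set, 201010_s_at, read 5.32 and 5.18 without and 5.42 and 5.48 with glucose under control siRNA, and 5.19 and 5.35 without and 5.37 and 5.63 with glucose under SRC-1 siRNA. It was called higher (0.21 ± 0.074, or 1.16-fold, 95% interval 1.03 to 1.31, adjusted p = 0.0368). That call was lost when either control array with glucose was left out (adjusted p = 0.0605 and 0.0895) and in 3 further omissions of 1 array, with an adjusted p of up to 0.120. In neither arm alone was 201010_s_at called (adjusted p = 0.160 with control and 0.117 with SRC-1 siRNA, limma). The third, 201008_s_at, was dim (26.1th percentile) and read between 3.27 and 3.90 over the 8 arrays. Its averaged difference in the fit without the filter was -0.13 ± 0.14 (adjusted p = 0.528). On the 2 brighter probe sets, a rise in array signal above 1.31-fold lies outside the 95% interval of the averaged effect. In single arms the interval of 201010_s_at reached 1.36-fold with control siRNA and 1.38-fold with SRC-1 siRNA. That probe set was itself weak (55.6th percentile), so the bound is one on signal and not on transcript.

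KLF10, a transcriptional repressor of the Krüppel-like family, fell with glucose (202393_s_at, 96.5th percentile of signals). It read 11.14 and 11.28 with control siRNA without glucose and 10.71 and 10.79 with glucose. The SRC-1 siRNA arrays read 11.11 and 11.24 without glucose and 10.83 and 10.76 with it. The media did not overlap. The averaged fall was 1.34-fold (-0.42 ± 0.059, adjusted p = 3.38e-04), with -0.46 ± 0.083 under control siRNA and -0.38 ± 0.083 under SRC-1 siRNA. The call with SRC-1 siRNA narrowly missed the threshold without replicate 2 of its arrays without glucose (adjusted p = 0.0514).

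**Figure D2:**
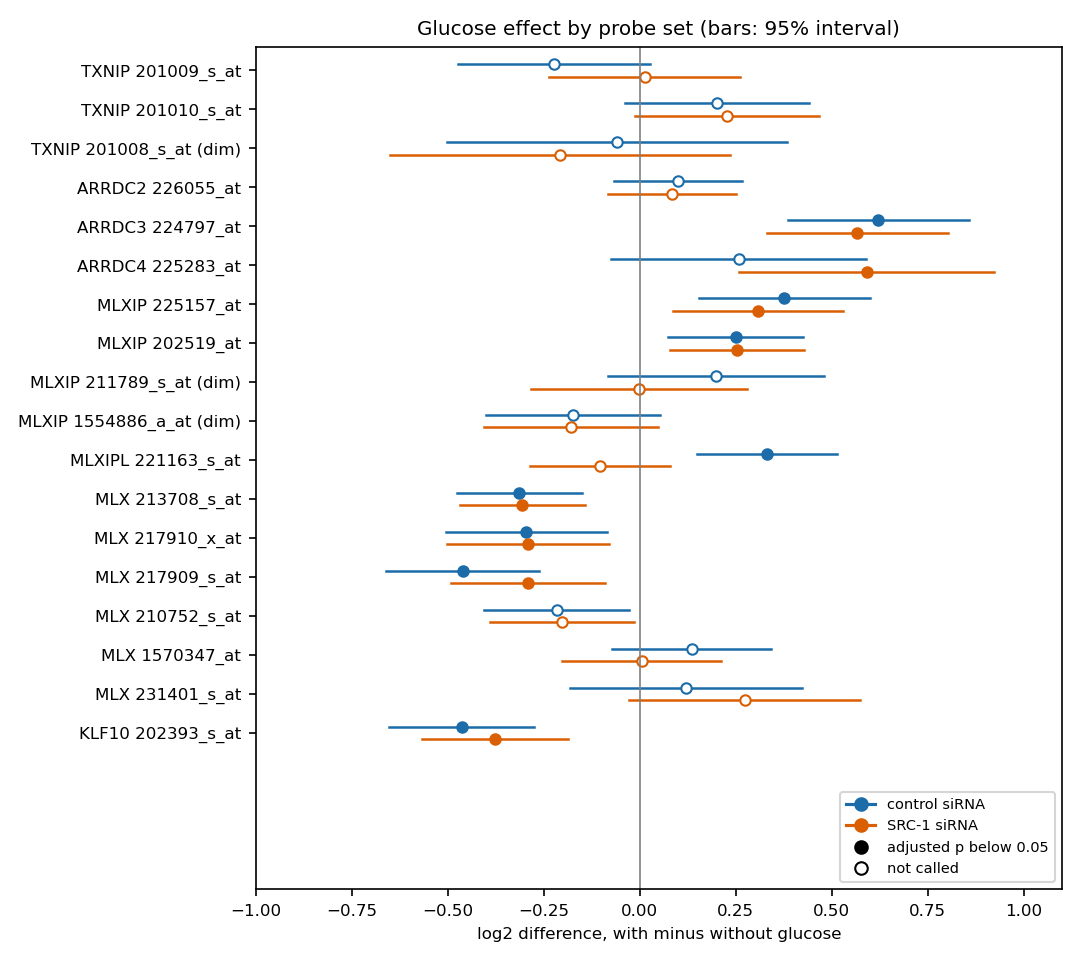
Glucose effect (log2 difference, with minus without glucose) of each probe set with control siRNA and with SRC-1 siRNA. Points are differences of 2 group means of 2 arrays each, bars are 95% intervals, filled points passed an adjusted p of 0.05, and probe sets marked dim come from the fit without the filter. ARRDC3 lies at 0.62 and 0.57, KLF10 at -0.46 and -0.38, and MLXIPL at 0.33 and -0.10.

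SRC-1 knockdown called none of the 15 member probe sets in limma. With glucose 2 of them had an unadjusted p below 0.05, as did 1432 of all 24655 probe sets tested. Of all probe sets 4 were called there (0.0162%, or 0.00736% by gene). Without glucose 0 of the members and 845 of all probe sets had such a p, and 6 of all were called (0.0243%, or 0.0221% by gene). Averaged over both media 1 member and 1317 of all had such a p, and 7 of all were called (0.0284%, or 0.0294% by gene). All of these calls were in the lower direction. The probe sets tested include those of NCOA1, the siRNA target itself, so these shares are no measure of other genes. MLXIPL had the smallest p. With glucose its signal was 5.34 ± 0.034 (SD, n = 2) with control siRNA and 4.87 ± 0.11 with SRC-1 siRNA, a difference of -0.47 ± 0.080 or 1.38-fold (unadjusted p = 3.09e-04, adjusted p = 0.490). The arrays of these groups did not overlap, but a permutation of 2 arrays against 2 cannot go below p = 0.333. Without glucose MLXIPL differed by -0.031 ± 0.080, with a 95% interval from -0.21 to 0.15. The other was ARRDC4, which differed by 0.36 ± 0.15 with glucose (unadjusted p = 0.0350, adjusted p = 0.847) and by 0.030 ± 0.15 without. The value with glucose rested on the spread of the control arrays, since it was 0.13 without their replicate 2 and 0.60 without their replicate 1.

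None of the remaining member probe sets reached an unadjusted p below 0.05 for SRC-1 siRNA in either medium. Without glucose, the brightest TXNIP probe set differed by -0.18 ± 0.11 (95% interval -0.42 to 0.074), and ARRDC3 differed by 0.12 ± 0.10. With glucose, MLX 217909_s_at differed by 0.14 ± 0.088 and its brightest probe set by 0.0044 ± 0.071. Averaged over both media, the brightest probe set of TXNIP stood -0.057 ± 0.077 from control siRNA, and KLF10 0.0030 ± 0.059, with a 95% interval from -0.13 to 0.14. MLX differed by 0.00026 ± 0.050, with an interval from -0.11 to 0.12, and ARRDC3 by 0.090 ± 0.073. The test of whether glucose acted differently under the 2 siRNAs called 0 of 24655 probe sets, with 1 of the 15 members (MLXIPL) and 895 of all probe sets at an unadjusted p below 0.05. The glucose and knockdown comparisons share arrays, so their values are given side by side and not set against each other.

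**Figure D3:**
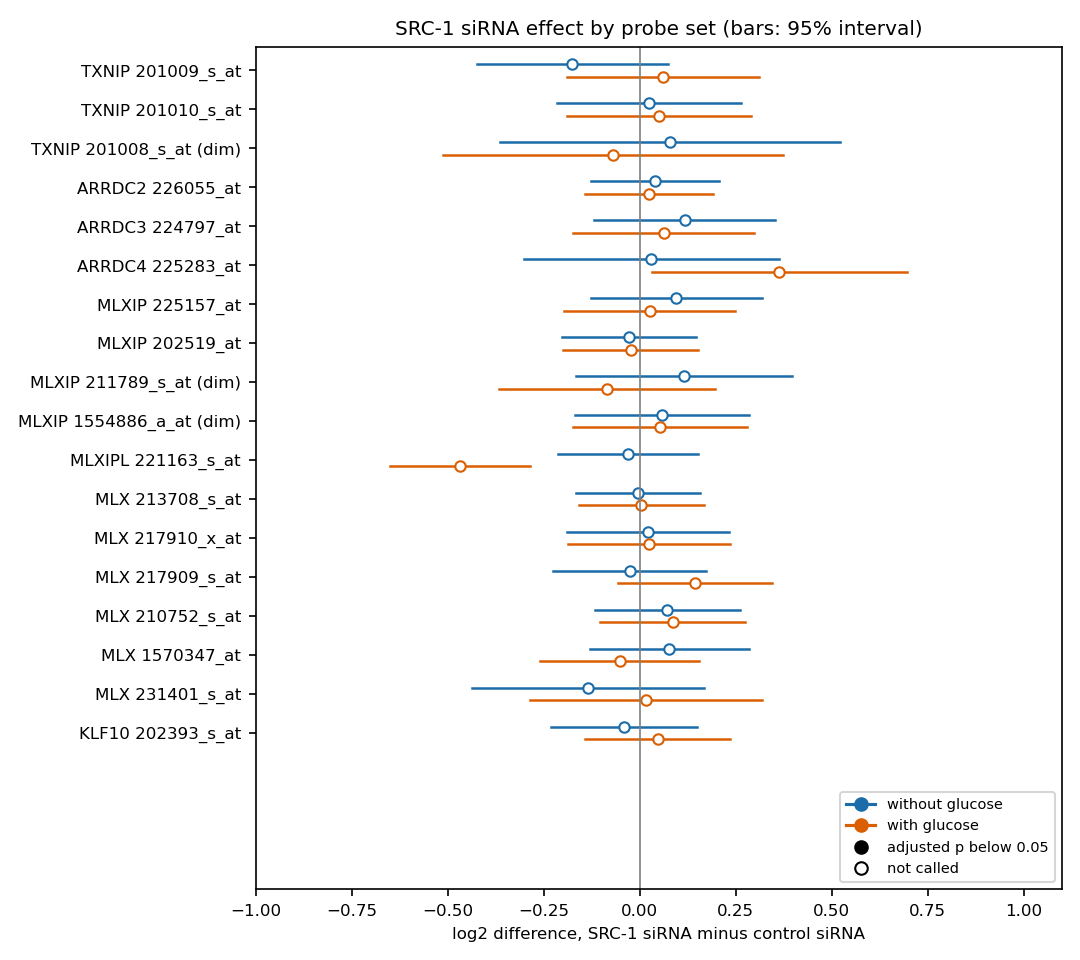
Effect of SRC-1 siRNA (log2 difference from control siRNA) on each probe set without and with glucose, with 95% intervals. Open points did not pass an adjusted p of 0.05, which holds for all 18 probe sets. MLXIPL with glucose lies at -0.47 and ARRDC4 with glucose at 0.36, and the interval of neither crosses 0.

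The pathway around these genes was read from lists of textbook members. Counts are by the brightest probe set of each gene, for the glucose effect averaged over both siRNAs. In that comparison 54.5% of 13584 genes were called, 29.0% higher and 25.6% lower. Each list count below stands beside these shares, and no list was tested against them. In the MYC, MAX and MLX network of dimerizing factors, 2 of 12 tested genes were higher and 6 lower (median -0.21). MXD1, a MAX partner that represses MYC targets, fell 4.27-fold (-2.09 ± 0.091, adjusted p = 5.27e-07). MNT, another repressor of the network that can pair with MLX, fell 1.501-fold, MYC 1.48-fold and MAX 1.19-fold. MXD3 (0.26 ± 0.053) rose beside MLXIP.

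Of 31 tested genes described as targets of MondoA or ChREBP, 15 were higher and 7 lower (median 0.092). The lipin LPIN1 rose 2.13-fold, the glycolytic regulator PFKFB3 1.79-fold, the desaturase SCD 1.77-fold and the fatty acid synthase FASN 1.76-fold. HK2, the inducible hexokinase, fell 4.42-fold (-2.14 ± 0.076), and the clock factor BMAL1 1.58-fold. PFKFB2, a relative of PFKFB3, fell 1.39-fold, and BHLHE40, a repressor in the clock, 1.21-fold. Members of this list thus moved on either side of 0, as the 8 genes themselves did. The list was written with earlier results of these arrays known, and TXNIP, ARRDC2, ARRDC3, ARRDC4 and KLF10 are among its members.

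Partners of TXNIP and the arrestins were examined next. Of 11 tested genes of the thioredoxin system, 2 were higher and 0 lower, the peroxiredoxins PRDX1 (1.19-fold) and PRDX3 (1.14-fold). TXN, the thioredoxin that TXNIP binds, differed by 0.040 ± 0.052 and was not called. Of 9 NEDD4-family ubiquitin ligases, some of which dock on alpha-arrestins, 3 were higher and 3 lower. ITCH, a ligase known to act on TXNIP, fell 1.73-fold and SMURF2 1.62-fold, while HECW2 rose 1.28-fold, WWP1 1.24-fold and WWP2 1.23-fold. For WWP2, another of its 3 probe sets was called lower. SMURF1 fell 1.17-fold.

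Of 14 tested genes of the Krüppel-like family, 1 was higher and 6 lower (median -0.092), with KLF10 among those that fell. Of all genes 29.0% were higher and 25.6% lower. KLF2 fell 2.31-fold, KLF4 1.67-fold, KLF6 1.48-fold and KLF7 1.28-fold, and KLF12 rose 1.75-fold. Of 20 regulators of the sensors, 11 were higher and 5 lower (median 0.16). OGT, which attaches the sugar GlcNAc to proteins, ChREBP among them, fell 1.997-fold, and OGA, which removes it, rose 2.84-fold. AMPK subunits moved either way, with the catalytic PRKAA2 1.79-fold higher and the regulatory PRKAG1 and PRKAG2 1.64-fold and 1.65-fold lower. PRKAB1 fell 1.19-fold. The 14-3-3 proteins YWHAH and SFN, of a family that holds phosphorylated ChREBP in the cytoplasm, rose 1.48-fold and 1.38-fold. SRC-1 knockdown averaged over both media called none of the tested genes in any of these lists (limma).

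**Figure D4:**
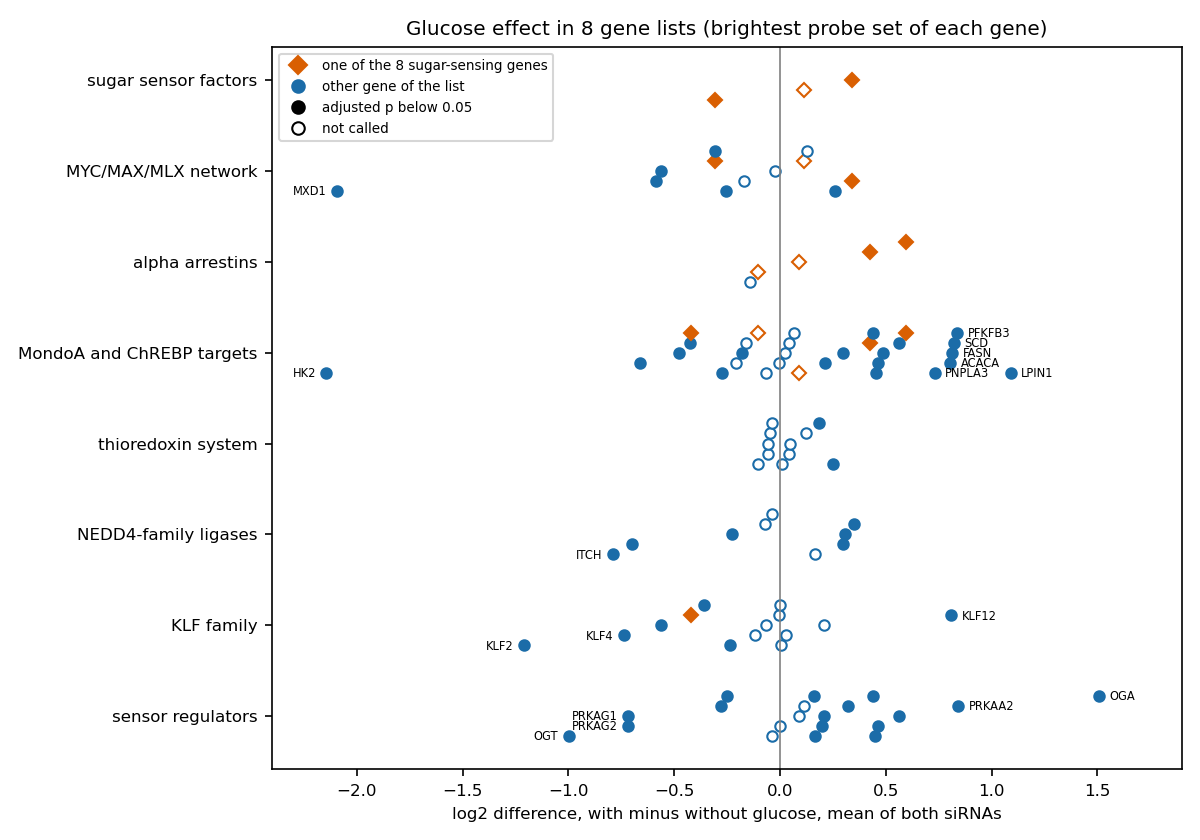
Glucose effect averaged over both siRNAs (log2 difference, with minus without glucose) for the tested genes of 8 lists, 1 point per gene and brightest probe set. Diamonds are the sugar-sensing genes described here, and filled points passed an adjusted p of 0.05. Genes beyond 0.7 either way are named, HK2 and MXD1 at the low end and OGA and LPIN1 at the high end.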

How the data were processed

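The deposited table holds log2 signals of 54675 probe sets on 8 arrays, used as the authors deposited them. The base of the logarithm was inferred from the steps of 1.94 and 2.00 between hybridization spikes. How the authors corrected, summarized and normalized the probes was not stated in the labels, and signal over background was not analysed. The labels name 2 biological replicates per group and nothing on separate cultures, so p-values cover only the spread among arrays, which may be technical. The platform annotation named the probe sets, with 41037 of 41091 matched to RefSeq (GRCh38.p14) by Entrez identifier. Promoter letters are from RefSeq.

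Probe sets with 1 gene and a mean at or above the 40th percentile of such probe sets (24655 probe sets, 13584 genes) entered 1 limma fit (limma 3.58.1, R 4.3.3) with a mean per group and no replicate block. Tests were two-sided and moderated with 4 residual and 4.46 prior degrees of freedom, and Benjamini-Hochberg adjusted over all probe sets tested, with a threshold of 0.05. A permutation of 2 arrays against 2 cannot go below p = 0.333. Precision is limited by the number of arrays. The median SE of a difference between 2 groups was 0.0899. The fit was tested on simulated arrays. The members and lists were chosen with earlier results of these data known. The text names every member, up to 4 called genes of a list in each direction with the smallest p and, for members whose group means span at least 0.5, the 3 genes with the highest Pearson correlation. Others named are single listed genes of background interest (TXN) and markers. The alternatives were quantile normalization, median centring, other filters, 1 or the mean probe set per gene, leaving out _s_at and _x_at probe sets, a prior trend, array weights, only the groups compared, a replicate block and leaving out each array. Probe sets of 1 gene were ranked by mean signal only to choose the brightest, and percentiles place a signal among all probe sets. Neither measures transcript level between genes.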

Additional observations from a re-analysis of the deposited data

Results flagged for a closer look

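MLXIPL (221163_s_at) is listed here because its glucose effects ran opposite ways under the 2 siRNAs, with both arrays of each medium on 1 side. With control siRNA both arrays with glucose lay above both without (0.33 ± 0.080 on the log2 scale). With SRC-1 siRNA both lay below (-0.10 ± 0.080, not called), but only by a near tie. The higher array with glucose read 4.9526 and the lower array without read 4.9539. Whether this weak signal lies above background was not tested. The difference between the arms was -0.44 ± 0.11 (95% interval -0.69 to -0.18). Its unadjusted p was 0.00433 and its adjusted p over 24655 probe sets 0.999 (limma), so it did not pass the correction. Over the alternatives run, the difference lay between -0.52 and -0.36 with an adjusted p of at least 0.820.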

How the results depend on the processing

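Counts of the 8 genes called, by brightest probe set, stayed within 1.5 times in all comparisons and alternatives, apart from those given here, and no called direction reversed. Without _s_at and _x_at probe sets, 0 genes were called lower with glucose under either siRNA or averaged, against 2, because KLF10 has no other probe set and MLX keeps only 1570347_at. With the mean of each gene's probe sets, 1 gene was lower under SRC-1 siRNA. Leaving out 1 array, the glucose effect under SRC-1 siRNA called 1 to 3 genes higher and 1 to 2 lower. Of single member values under the alternatives, 41 lost a call, 13 gained one and 1693 did neither. Without the filter 7 calls were lost, those of MLXIP and MLX given above and the averaged one of TXNIP 201010_s_at (adjusted p = 0.0668), which a prior trend also ended (0.0600). The replicate numbers are not said to mark a shared batch, and correlations of replicate deviations between groups lay between -0.076 and 0.12. The replicate block called 3 genes higher and 2 lower with glucose under either siRNA, as without it. Over all probe sets, a prior trend moved the knockdown calls averaged over both media from 7 to 17 and those without glucose from 6 to 11, the cause of which was not tested. Fits on 1 probe set per gene called 6142 genes with glucose under control siRNA, against 10555 probe sets, since fewer features were tested. Without detection calls, folds that start or end at a weak signal (ARRDC4, MLXIPL, TXNIP 201010_s_at) may be compressed.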

Other observations

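Probe sets of 1 gene disagreed on this platform beyond TXNIP. Of 6457 genes with at least 2 tested probe sets, the 2 brightest had averaged glucose differences of opposite sign in 26.9%. In 11.9% the signs were opposite and only 1 of the pair was called, as for TXNIP, and in 4.74% both were called in opposite directions.

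ARRDC1, an alpha-arrestin that was no member, differed by -0.14 ± 0.069 with glucose and was not called (adjusted p = 0.122). ARRDC1-AS1, the antisense transcript named for it, lay between 5.80 and 5.90 on the 4 arrays with glucose and between 6.07 and 6.21 on the 4 without (-0.27, adjusted p = 0.00265, limma). ARRDC3-AS1, named for the opposite strand of ARRDC3, had a mean of 4.94 with glucose and 4.85 without and was not called (adjusted p = 0.410), while ARRDC3 itself rose. These transcripts were chosen after the annotation was seen.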
